A study of Mus musculus with 36 samples.

Results

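Population B was compared with population A, 6 RNA-seq libraries against 6, within a series of 36 libraries of sorted mouse brain cells in 6 populations and 3 brain regions. The members are the libraries whose titles name population B or population A, and each population has 2 libraries from the olfactory bulb, 2 from the cortex and 2 from the brainstem. All 12 libraries came from C57/Bl6 mice and carry the label astrocyte, and no treatment, mutation, transgene or age is given for them. The labels do not say what the letters B and A stand for, which surface antigens separated the cells, or whether a group's 2 libraries are from different animals. P-values therefore set a difference only against the spread left among these libraries, and that spread may be technical. Libraries are named below by region, population and a number given in deposited order, which pairs nothing across groups.

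Astrocytes are the glia that clear transmitters from synapses, couple to each other through gap junctions and line the vessels of the brain. Microglia are the resident macrophages of the brain. They arise from another lineage, depend on the growth factor receptor Csf1r and the transcription factor Spi1, make most of the complement component C1q in the brain, and sense damage through the receptor pair Trem2 and Tyrobp. When brain tissue is dissociated and sorted, fragments of neurons and of myelin can also be carried along. The markers of these cell types were therefore read beside those of astrocytes.

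Astrocyte markers were abundant in both populations. Their summed level over 26 genes lay between 3301 and 7585 FPKM (the Cufflinks unit, which divides fragments by transcript length and library depth) in B and between 1026 and 3754 FPKM in A. Aldh1l1, a folate enzyme used as an astrocyte marker, had 7.26, 13.9 and 29.4 FPKM (lowest, median and highest library) in B and 1.55, 6.02 and 14.3 FPKM in A. The 28 microglia and macrophage markers summed to between 1299 and 2462 FPKM in B and between 131 and 413 FPKM in A. RNA of astrocyte type was thus measured in both populations, as the label says, while the summed microglial level under that same label did not overlap between them. In bulk libraries, more cells of a type and more RNA per cell cannot be told apart.

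The libraries differed in depth along with the population. Coverage divided by FPKM, a relative measure of mapped fragments, ranged from 2.72 to 4.08 in B and from 1.53 to 2.26 in A, so depth and population cannot be told apart. Near 10 FPKM, the interval the authors deposited had a median half-width of 10.1% to 12.01% of the value in B and of 12.6% to 16.0% in A. It covers counting and assignment error only. The nuclear FPKM of a library summed to 97739 to 139640 in B and to 36605 to 104260 in A. Fewest genes reached 1 FPKM in brainstem B 2 (5900) and in cortex A 2 (4278), against 6752 to 10354 in the other 10 libraries.

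In B, 463 of 12176 genes tested were higher than in A (3.8%) and 18 were lower (0.148%), by limma with region as a block on log2(FPKM + 1) and a Benjamini-Hochberg adjusted p under 0.05. The 20 genes named for the largest positive difference include the microglial genes Trem2 and Tmem119, the C1q genes C1qc and C1qa, the chemokines Ccl3 and Ccl4 and the immediate early genes Zfp36 and Dusp1, beside others such as Grcc10, Grn and Ilvbl. The 10 named for the largest negative difference include the neuron markers Syn1, Gap43 and Celf4 and the kinesins Kif5a and Kif5b, beside others such as Zfas1. After quantile normalization, which gives every library the same distribution of values, 269 genes were higher (2.21%) and 236 were lower (1.94%). Of the genes called as deposited, 264 higher and all 18 lower genes were called the same way on both scales, and 0 were called opposite ways.

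The balance of higher and lower calls moved with the scale, so it is given on each. Higher genes made up 96.3% of the calls as deposited, 53.3% after quantile normalization and 65.8% after each library was rescaled to a gene FPKM sum of 1000000. That sum is above the sum of any library as deposited, so the 1 added before the log weighs less after rescaling. Every count after rescaling therefore mixes a change of scale with a smaller pseudocount. With 0.1 added in place of 1 and no rescaling, 270 genes were higher and 9 lower. The median B minus A difference over all genes tested was 0.36 as deposited, -0.02 after quantile normalization and 0.14 after rescaling, all in log2 units, and differences below are read against it. Without any test, every B library was above every A library in 431 genes (3.54%) and below every A library in 13 genes (0.107%). The count of 463 higher genes became 937 without brainstem B 2, and 219 without brainstem A 2, 244 without cortex B 2, 270 without cortex B 1, 279 without olfactory bulb B 1 and 287 without cortex A 2. Without olfactory bulb A 2 it was 321, without olfactory bulb A 1 323, without cortex A 1 330 and without brainstem B 1 347. Without brainstem A 1 it was 382, and without olfactory bulb B 2 488. Counts of list members below, without 1 library, are read against these. The count of 18 lower genes ran from 5 to 32 over the same omissions. It was 32 without olfactory bulb B 2 or brainstem B 2 and 5 without brainstem A 2 or olfactory bulb B 1. It was 6 without olfactory bulb A 1, cortex A 1, cortex B 1 or brainstem B 1, 9 without cortex B 2 and 10 without brainstem A 1. Without both libraries that list the fewest genes, brainstem B 2 and cortex A 2, 599 genes were higher and 47 lower. The numbers in the titles form 2 series, which the labels do not call a batch. The second holds brainstem B 2, cortex A 2 and brainstem A 2. Among the 9 libraries of the first series, 479 genes were higher and 37 lower, and with the series as a term in the fit 521 were higher and 46 lower.

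**Figure D1:**
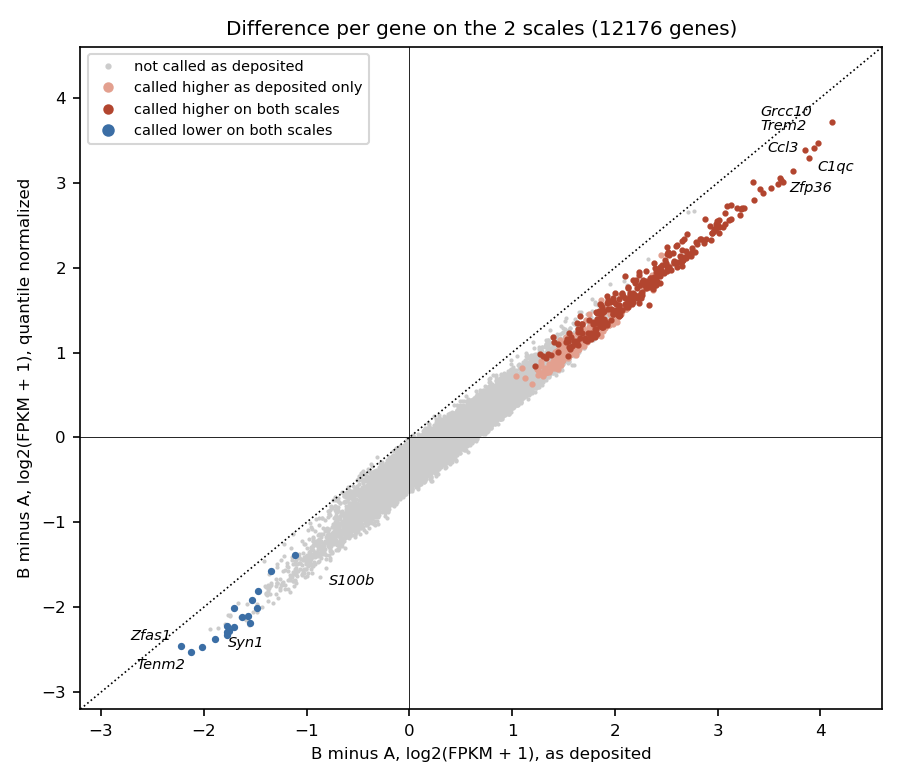
The B minus A difference of each of the 12176 genes tested, in log2(FPKM + 1), as deposited (horizontal axis) and after quantile normalization (vertical axis), with the dotted line marking equal values. The 264 genes called higher on both scales and the 18 called lower on both lie at the ends of 1 narrow band that runs below the dotted line.

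Ccl3, the chemokine also known as MIP-1 alpha, had 204 and 55.8 FPKM in olfactory bulb B, 148 and 65.5 FPKM in cortex B and 273 and 237 FPKM in brainstem B. It had 4.22 and 5.37 FPKM in olfactory bulb A, 25.2 and 9.52 FPKM in cortex A and 21.7 and 1.83 FPKM in brainstem A. The gene (chr11:83647844-83649355, mm10) was higher in every B library than in any A library, with a difference of 3.93 ± 0.55 log2 units (SE, adjusted p = 0.000777, limma). C1qc, which encodes a chain of C1q (chr4:136889804-136893065), had 208 and 290 FPKM in olfactory bulb B, 274 and 318 FPKM in cortex B and 273 and 167 FPKM in brainstem B. It had 27.6 and 24.9 FPKM in olfactory bulb A, 42.7 and 0.575 FPKM in cortex A and 23.4 and 17.7 FPKM in brainstem A. These groups did not overlap either, and cortex A 2 stood far under the other A libraries (difference 3.89 ± 0.61, adjusted p = 0.00144, limma).

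Syn1 encodes synapsin I, a coat protein of synaptic vesicles (chrX:20860511-20921004). It had 8.49 and 30.2 FPKM in olfactory bulb B, 15.5 and 10.8 FPKM in cortex B and 2.16 and 0 FPKM in brainstem B. It had 47.8 and 47.6 FPKM in olfactory bulb A, 33.5 and 42.8 FPKM in cortex A and 13.5 and 7.93 FPKM in brainstem A. In each region both B libraries were below both A libraries (difference -1.89 ± 0.43, adjusted p = 0.018, limma). Across regions the populations overlapped, as 30.2 FPKM in olfactory bulb B and 15.5 FPKM in cortex B exceeded both brainstem A values. When B and A were exchanged between libraries within regions, each of these 3 genes gave a two-sided exact permutation p of 0.00926, the smallest that the 216 arrangements can give. Any gene with its B libraries on the same side of the A libraries within each region gives this p. The 3 genes were set as markers of this comparison with earlier results of these data known, so the p adds no support of its own. How many of all genes reach it was not counted.

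**Figure D2:**
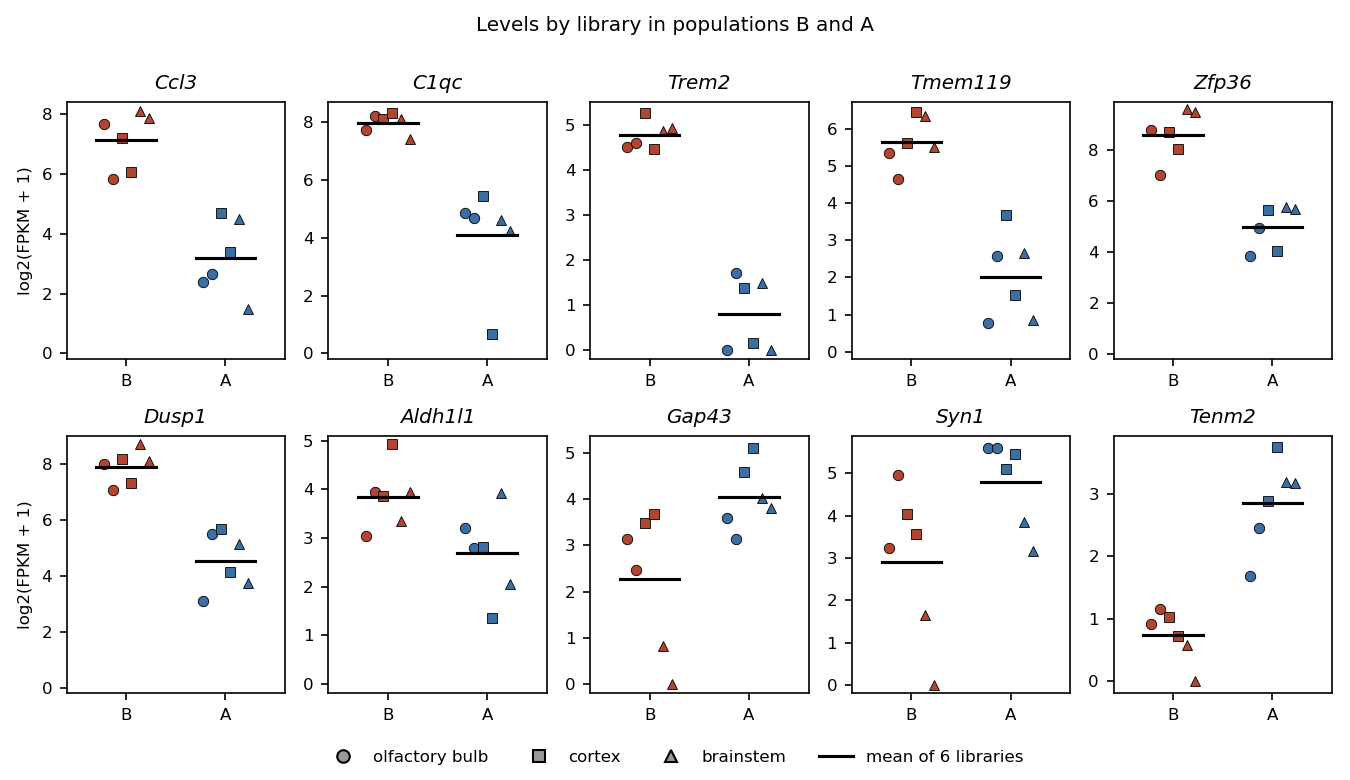
Levels of 10 genes in each library, in log2(FPKM + 1), with population B left of population A, symbols for the region and a bar at the mean of the 6 libraries. The B libraries lie above all A libraries for Ccl3, C1qc, Trem2, Tmem119, Zfp36 and Dusp1, below all of them for Tenm2, and overlap with them for Aldh1l1, Gap43 and Syn1.

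Microglia and macrophage markers were higher in B as a group: 25 of the 28 members tested were called higher and 0 lower, with the same counts after quantile normalization and 22 higher after rescaling. The median difference of the list was 2.91, against 0.36 over all genes. Trem2, the lipid-sensing receptor of microglia (chr17:48346401-48354147), had 21.3, 25.8 and 37.3 FPKM in B and 0, 0.874 and 2.3 FPKM in A, a difference of 3.98 ± 0.42 (adjusted p = 0.000191, limma). Csf1r, the receptor for colony stimulating factor on which microglia depend, had 80.4, 116 and 250 FPKM in B and 9.01, 13.6 and 25.7 FPKM in A (2.97 ± 0.37, adjusted p = 0.000321). Olfml3, a secreted protein typical of microglia, had 15.6, 26.2 and 37.2 FPKM in B and 0.279, 1.14 and 4.45 FPKM in A (3.59 ± 0.39, adjusted p = 0.000191). The purine receptor P2ry13, which senses ADP, had 28.4, 35.6 and 83.7 FPKM in B and 0.246, 3.28 and 7.97 FPKM in A (3.52 ± 0.45, adjusted p = 0.000427). None of these 4 genes overlapped between the populations.

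Other genes with a large difference belonged to the same group. Tmem119, a surface protein that sets microglia apart from blood-derived macrophages, had 24, 45.9 and 85.9 FPKM in B and 0.716, 3.44 and 11.9 FPKM in A (difference 3.63 ± 0.48). Selplg, the ligand of P-selectin, had 17.3, 41.7 and 68.4 FPKM in B and 0.163, 2.97 and 6.28 FPKM in A (3.44 ± 0.45). The lysosomal protease Ctss and the lysosomal membrane protein Laptm5 differed by 3.24 ± 0.47 and 3.23 ± 0.45, each with no overlap. Outside the list, the leukocyte tetraspanin Cd37 (3.41 ± 0.51) and the membrane-bending protein Bin2 (3.26 ± 0.39) were also higher in B in all 6 libraries, and all 6 of these genes had an adjusted p of 0.00101 or less by limma. The 3 markers not called were Fcrls (1.76 ± 0.54), Sall1 (1.63 ± 0.50) and Irf8 (1.17 ± 0.47). Over the 25 called members the difference ran from 1.79 to 3.98. Leaving out each library in turn gave between 24 and 27 called members, and leaving out both brainstem B 2 and cortex A 2 gave 26.

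The subunits of C1q were all higher in B but not in a fixed ratio. C1qb had 116, 173 and 205 FPKM in B and 6.67, 19.7 and 32 FPKM in A, a difference of 3.11 ± 0.38 (adjusted p = 0.000321, limma). C1qa had 11.3, 76.8 and 113 FPKM in B and 0.266, 4.6 and 8.21 FPKM in A, a difference of 3.74 ± 0.56 (adjusted p = 0.00117). The low C1qa library in B was olfactory bulb B 2, where C1qa was 0.0972 of C1qb, against 0.347 to 0.564 in the other 5 B libraries. In A the same ratio ran from 0.0135 in brainstem A 2 to 0.441 in olfactory bulb A 2, so it overlapped between the populations.

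In the complement list as a whole, 6 of 11 members tested were higher and 0 lower (6 after quantile normalization and 4 after rescaling), and 6 listed members (C3, C1ra, C1s1, Cfb, Cfp and C2) were under the filter of 1 FPKM in 2 libraries. C5ar1, the receptor for the anaphylatoxin C5a, had 1.62, 5.24 and 13.7 FPKM in B and 0, 0.0884 and 0.955 FPKM in A (2.44 ± 0.42, adjusted p = 0.00265, limma). C3ar1, the receptor for the anaphylatoxin C3a, was also called (1.66 ± 0.42, adjusted p = 0.0329). Both receptors stayed under 1 FPKM in every A library, so they passed the filter through B alone. The count of called members was 5 or 6 without any 1 library.

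Promoter windows of genes that were higher in B are shown to give the sequence from which these transcripts start. Each runs from 250 bases before to 50 bases after the RefSeq start (GRCm38.p6, the assembly behind mm10), and all 4 genes here are of microglial type. Capitals mark matches on either strand to the core of the box bound by the Spi1 product PU.1 (GAGGAA), and besides it 1 kappa B consensus, the second match of the C1qc window, and 1 TRE (TGANTCA), the second match of the Trem2 window. The windows are C1qb at chr4:136886151-136886450 (minus strand), C1qc at chr4:136892865-136893164 (minus strand), Trem2 at chr17:48346151-48346450 (plus strand) and Ccl3 at chr11:83649329-83649628 (minus strand).
C1qb: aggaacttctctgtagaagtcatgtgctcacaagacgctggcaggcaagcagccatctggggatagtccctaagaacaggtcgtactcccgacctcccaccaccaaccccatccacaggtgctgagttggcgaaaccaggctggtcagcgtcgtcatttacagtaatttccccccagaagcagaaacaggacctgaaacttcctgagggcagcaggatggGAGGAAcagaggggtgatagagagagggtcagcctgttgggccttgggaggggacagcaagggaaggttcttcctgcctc
C1qc: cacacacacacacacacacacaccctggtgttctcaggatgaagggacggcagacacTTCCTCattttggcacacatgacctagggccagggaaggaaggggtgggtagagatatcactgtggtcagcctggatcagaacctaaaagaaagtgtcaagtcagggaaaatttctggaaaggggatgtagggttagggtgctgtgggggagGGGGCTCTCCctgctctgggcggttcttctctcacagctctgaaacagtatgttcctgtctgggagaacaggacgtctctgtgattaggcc
Trem2: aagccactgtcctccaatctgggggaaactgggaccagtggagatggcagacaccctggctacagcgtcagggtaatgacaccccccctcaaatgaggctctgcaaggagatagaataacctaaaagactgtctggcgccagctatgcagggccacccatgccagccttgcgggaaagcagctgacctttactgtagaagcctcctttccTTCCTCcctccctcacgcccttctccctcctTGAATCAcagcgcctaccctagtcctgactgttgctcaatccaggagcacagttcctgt
Ccl3: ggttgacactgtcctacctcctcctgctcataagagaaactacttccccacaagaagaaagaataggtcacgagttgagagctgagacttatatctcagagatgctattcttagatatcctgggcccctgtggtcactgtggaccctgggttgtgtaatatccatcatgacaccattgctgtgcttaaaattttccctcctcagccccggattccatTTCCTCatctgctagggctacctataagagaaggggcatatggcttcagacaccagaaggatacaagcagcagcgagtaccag
Each of these 4 windows held the PU.1 core once, and the matches did not overlap any other marked motif. The core is short and common: it was in 28.3% of all 32851 RefSeq promoter windows, in 26.4% of those of genes tested here, and in 39.4% of the 259 windows of genes higher in B on both scales. The TRE was in 7.81% of all windows, in 5.01% of those of genes tested and in 7.72% of those of genes higher in B, and the kappa B consensus in 4.51%, 5.15% and 8.49% of the same sets. The window of Olfml3, a microglial gene higher in B, held none of the 5 motifs searched, and that of Grn, also higher in B, held the PU.1 core at 2 places. The window of Syn1, which was lower in B, also held the PU.1 core.

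Chemokines, cytokines and their receptors were higher in B in 17 of 29 members tested, with 0 lower and a list median of 1.93. After quantile normalization 14 were higher, and after rescaling 7. Leaving out each library in turn gave 12 to 21 higher members. Ccl4, a CC chemokine and the neighbour of Ccl3, had 8.92, 45.7 and 71.7 FPKM in B and 0, 1.2 and 7.65 FPKM in A (difference 3.85 ± 0.54, adjusted p = 0.000777, limma). The transforming growth factor Tgfb1 had 2.19, 8.12 and 11.8 FPKM in B and 0, 0.406 and 1.36 FPKM in A (2.52 ± 0.40, adjusted p = 0.00144). Its receptor subunit Tgfbr1 had 7.49, 14 and 21.8 FPKM in B and 0.642, 1.94 and 5.82 FPKM in A (2.30 ± 0.39, adjusted p = 0.00265). Ligand and receptor were therefore both higher in B, without overlap. Ccrl2, a receptor that presents the chemoattractant chemerin, had 1.12, 3.85 and 15.9 FPKM in B and 0, 0.168 and 0.285 FPKM in A (2.30 ± 0.40, adjusted p = 0.00292). It reached 1 FPKM in no A library, so it passed the filter through B alone.

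Genes that carry signals from myeloid receptors were higher in B in 12 of 18 members, with 0 lower, and 7 were higher after quantile normalization and 5 after rescaling. Cd33, an inhibitory receptor for sialic acid, had 11.1, 17.8 and 23.1 FPKM in B and 0.0449, 1.14 and 2.29 FPKM in A (3.19 ± 0.39, adjusted p = 0.000321, limma). Itgb2, the beta chain of the leukocyte integrins, had 2.54, 7.38 and 13.9 FPKM in B and 0.0332, 0.305 and 1.75 FPKM in A (2.41 ± 0.40, adjusted p = 0.00205). The Fc receptor Fcgr3 had 6.58, 12.9 and 32.3 FPKM in B and 0.383, 1.91 and 4.69 FPKM in A (2.39 ± 0.40, adjusted p = 0.00225). Downstream of such receptors, the lipid phosphatase Inpp5d (2.32 ± 0.40) and the phospholipase Plcg2 (1.78 ± 0.34) were higher in B without overlap. Plcg2 stayed under 1 FPKM in every A library and passed the filter through B alone. Leaving out each library in turn gave 7 to 15 higher members, with 7 without brainstem A 2 and 15 without brainstem B 2.

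Antigen presentation genes were higher in B in 6 of 12 members tested, with 0 lower, 3 after quantile normalization and 0 after rescaling. Those called belong to both classes of the major histocompatibility complex. H2-Ab1, a chain of a class II molecule, had 6.25, 17.7 and 49.4 FPKM in B and 0, 2.57 and 5.9 FPKM in A (2.75 ± 0.52, adjusted p = 0.00555, limma). H2-Aa, its partner, had 7.24, 17.1 and 70.5 FPKM in B and 0, 3.49 and 12 FPKM in A (2.49 ± 0.52, adjusted p = 0.0106), with overlap between the populations. The class I heavy chains H2-K1 (2.37 ± 0.55) and H2-D1 (1.85 ± 0.48) are near-identical relatives whose shared reads Cufflinks divides by estimation, so their separate levels are uncertain. H2-DMa, which loads peptides on class II, differed by 2.15 ± 0.48. The count was 2 without brainstem A 2 and 3 without cortex B 1, cortex B 2 or brainstem B 1.

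Lysosomal genes were higher in B in 12 of 21 members tested, with 0 lower, and 10 were higher after quantile normalization and 7 after rescaling. Grn encodes progranulin, a precursor of lysosomal granulins, and had 32.6, 55.8 and 92.5 FPKM in B and 0.0522, 5.07 and 9.17 FPKM in A (3.61 ± 0.53, adjusted p = 0.000918, limma). Ctsd, the aspartic protease cathepsin D, had 208, 250 and 422 FPKM in B and 20.8, 60.2 and 92.8 FPKM in A (2.46 ± 0.41, adjusted p = 0.00225). The proteases Ctsc (2.34 ± 0.34) and Lgmn (2.74 ± 0.43) and the hexosaminidase chain Hexa (2.51 ± 0.41) were higher as well, each without overlap. The list median was 1.85, and leaving out each library in turn gave 9 to 15 higher members.

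Phagocytic receptors and bridging proteins gave a less even picture, with 6 of 19 members higher, 0 lower and a list median of 1.19. The receptor kinase Mertk, which engulfs dying cells and debris, had 1.39, 18.9 and 41.7 FPKM in B and 0.743, 2.84 and 11.9 FPKM in A (2.13 ± 0.52, adjusted p = 0.029, limma). Its bridging ligand Gas6 had 9.67, 12.8 and 41.9 FPKM in B and 1.2, 4.32 and 9.26 FPKM in A (1.76 ± 0.40, adjusted p = 0.0192). Both were also called after quantile normalization, the only members of this list that were, and 1 member was called after rescaling. The Toll-like receptors Tlr7 (2.06 ± 0.43) and Tlr2 (1.53 ± 0.37), the scavenger receptor Msr1 (1.09 ± 0.28) and the integrin chain Itgb5 (1.76 ± 0.47) completed the 6. Msr1 had at most 0.0237 FPKM in A and passed the filter through B alone. The count of 6 became 12 without brainstem B 2, and 1 without olfactory bulb A 2, brainstem A 2 or olfactory bulb B 1. Over all genes the higher calls moved from 463 to 937, 321, 219 and 279 with these omissions, in the same order. The 2 counts moved in the same direction each time, and whether the list moved more than all genes was not tested. The count of 6 was 2 without olfactory bulb A 1, cortex B 2 or brainstem B 1 and 3 without cortex A 2 or cortex B 1.

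Macrophages of the brain's borders, which live along vessels and in the meninges, share many genes with microglia but carry markers of their own. Of 9 such markers 4 were higher in B and 0 lower, and 2 were higher after quantile normalization and 2 after rescaling. Their levels were low, with a summed level between 29.2 and 68.5 FPKM in B and between 0 and 15.5 FPKM in A. Stab1, a scavenger receptor, had 2.46, 7.33 and 14 FPKM in B and 0, 0.178 and 1.03 FPKM in A (2.60 ± 0.40, adjusted p = 0.00127, limma). Mrc1, the mannose receptor, had 3.05, 6.98 and 11.7 FPKM in B and 0, 0.298 and 1.46 FPKM in A (2.29 ± 0.39, adjusted p = 0.00274). F13a1 (1.63 ± 0.38) and Lyve1 (1.91 ± 0.50) were called as deposited only, and Cbr2 gave 2.09 ± 0.59 (adjusted p = 0.0534). Lyve1 had at most 0.461 FPKM in A and passed the filter through B alone. The count of 4 became 7 without brainstem B 2 and 2 without olfactory bulb A 1, cortex A 2, brainstem A 2 or cortex B 2. The part of border macrophages in the microglial result was not tested.

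Immediate early genes, which cells switch on within minutes of a stimulus and also while tissue is dissociated, showed 17 of 23 members higher in B and 0 lower. Their list median was 2.40, against 0.36 over all genes, and 11 were higher after quantile normalization and 9 after rescaling. Zfp36, which speeds the decay of inflammatory messages, had 128, 429 and 782 FPKM in B and 13.5, 39.2 and 53.6 FPKM in A (3.62 ± 0.41, adjusted p = 0.000211, limma). Dusp1, a phosphatase that switches off MAP kinases, had 133, 265 and 421 FPKM in B and 7.52, 25.3 and 49.6 FPKM in A (3.36 ± 0.47, adjusted p = 0.000777). Atf3, a stress-induced transcription factor, had 15.8, 71.4 and 106 FPKM in B and 0.892, 5.97 and 14 FPKM in A (3.22 ± 0.51, adjusted p = 0.00147). In all 3 genes every B library was above every A library.

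Transcription factors of the list were among the called members. Egr1, a zinc finger factor, had 93, 231 and 439 FPKM in B and 14, 27.2 and 70.7 FPKM in A (2.80 ± 0.40, adjusted p = 0.000788, limma). Jun, a subunit of the factor AP-1, had 58, 175 and 206 FPKM in B and 8.16, 22.6 and 37.4 FPKM in A (2.95 ± 0.46, adjusted p = 0.00144). Fos, its partner, was singled out after its values were seen and had 38.4, 80.6 and 147 FPKM in B and 2.99, 13.4 and 28.4 FPKM in A (2.65 ± 0.50, adjusted p = 0.00551). The called members ran from 1.66 to 3.62. The mean level of the list, in log2(FPKM + 1), was 3.81 to 5.63 in B and 1.54 to 3.16 in A. The microglial list also differed between the populations, at 4.58 to 5.68 in B and 1.75 to 3.33 in A. Within B both lists were lowest in olfactory bulb B 2 but were not highest in the same library. The microglial mean was highest in cortex B 2, where the immediate early mean was 4.38. The immediate early mean was highest in brainstem B 1, where the microglial mean was 5.43. The part of microglia in the immediate early genes was not tested. The count of called immediate early genes was 13 to 20 without 1 library and 17 without both brainstem B 2 and cortex A 2.

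**Figure D3:**
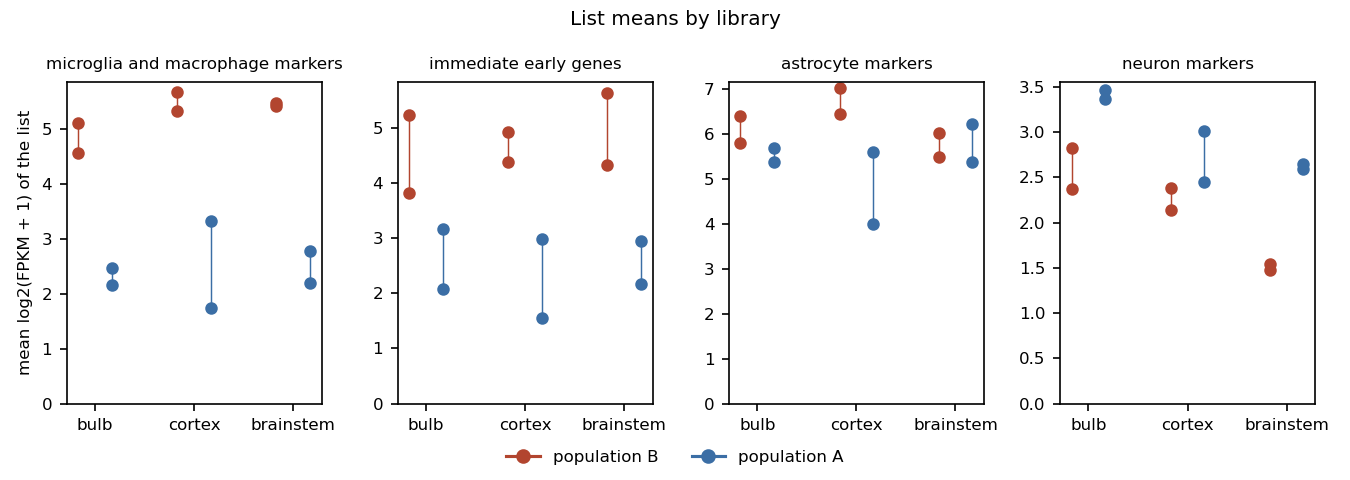
Mean log2(FPKM + 1) over the members of 4 gene lists in each library, by region, with population B left of population A and a line joining the 2 libraries of a group. Microglial and immediate early means are higher in B in every region, neuron means are lower in B within every region, and the astrocyte means of B and A overlap in the brainstem only.

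The promoter windows of Zfp36 (at chr7:28379179-28379478 (minus strand)) and Dusp1 (at chr17:26508423-26508722 (minus strand)) are shown because both are immediate early genes with a large difference. Whether the marked motifs act in these cells was not tested. Capitals mark a CArG box, the type of site bound by serum response factor, in Zfp36, and a palindromic CRE (TGACGTCA) and, downstream of it, the PU.1 core (GAGGAA) in Dusp1.
Zfp36: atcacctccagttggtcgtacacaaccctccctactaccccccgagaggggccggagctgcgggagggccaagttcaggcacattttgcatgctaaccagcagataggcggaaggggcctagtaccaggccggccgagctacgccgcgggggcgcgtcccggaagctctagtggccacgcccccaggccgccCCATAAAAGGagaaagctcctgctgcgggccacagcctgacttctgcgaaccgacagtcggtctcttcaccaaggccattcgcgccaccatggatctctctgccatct
Dusp1: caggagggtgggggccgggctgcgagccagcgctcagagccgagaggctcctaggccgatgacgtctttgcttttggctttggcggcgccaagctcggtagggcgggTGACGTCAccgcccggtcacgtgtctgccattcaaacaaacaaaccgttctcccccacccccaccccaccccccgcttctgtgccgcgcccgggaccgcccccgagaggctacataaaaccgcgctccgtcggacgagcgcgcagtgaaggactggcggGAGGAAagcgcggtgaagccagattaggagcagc
The CArG box was in 1.63% of all RefSeq windows, in 1.29% of those of genes tested and in 2.70% of those of genes higher in B on both scales. The CRE was in 1.79% of all windows, in 2.89% of those of genes tested and in 2.70% of those of genes higher in B on both scales. The windows of Jun and Junb held none of the 5 motifs searched, and the CRE was also in the window of Syn1, which was lower in B. Of the 5 motifs, the window of Fos held only a kappa B match and that of Atf3 only the PU.1 core.

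Targets and feedback genes of NF-kB were higher in B in 5 of 12 members tested, with 0 lower and a median of 1.36, 4 after quantile normalization and 1 after rescaling. Cd83, a surface protein of activated myeloid cells, had 2.5, 20.3 and 63.9 FPKM in B and 0, 0.922 and 2.3 FPKM in A (3.13 ± 0.53, adjusted p = 0.00256, limma). Tnfaip3, which dampens NF-kB, had 2.95, 12.6 and 27.2 FPKM in B and 0.638, 1.44 and 2.96 FPKM in A (2.35 ± 0.45, adjusted p = 0.00544). The NF-kB subunit Rel (2.38 ± 0.50) and the IkB-type regulators Nfkbid (1.85 ± 0.43) and Nfkbiz (1.89 ± 0.52) were the other called members. Nfkbid had at most 0.524 FPKM in A and passed the filter through B alone. The count became 9 without brainstem B 2, 8 without olfactory bulb B 2 and 3 without brainstem A 2 or olfactory bulb B 1.

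Heat shock and interferon genes gave few calls in number. Of 13 chaperone genes 2 were higher and 0 lower, against 3.8% higher and 0.148% lower over all genes. All 13 differences were positive, with a median of 0.88 against 0.36 over all genes. After quantile normalization these medians were 0.44 and -0.02. Hspa5, the chaperone of the endoplasmic reticulum, had 31.9, 59.9 and 90.3 FPKM in B and 5.95, 18.7 and 20.8 FPKM in A (1.89 ± 0.40, adjusted p = 0.0118, limma). Hspa1a, the inducible cytosolic form, had 12, 17.7 and 57.8 FPKM in B and 0.294, 5.11 and 14.5 FPKM in A (2.05 ± 0.51, adjusted p = 0.031). Only Hspa5 was called after quantile normalization, and the count was 1 without olfactory bulb A 1, cortex A 2, brainstem A 1, brainstem A 2, olfactory bulb B 1, cortex B 1, cortex B 2 or brainstem B 1. Of 13 interferon response genes 1 was higher, the transcription factor Irf1 (1.53 ± 0.41, adjusted p = 0.0434), and it was not called after quantile normalization. The count was 2 without brainstem B 2, 1 without cortex B 1, brainstem B 1 or olfactory bulb B 2, and 0 without any 1 of the other 8 libraries. The list median was 0.42, close to the 0.36 of all genes. Ifit3, an antiviral effector, had 0, 1.34 and 3.67 FPKM in B and 0.437, 4.27 and 11.2 FPKM in A, a difference of -0.96 ± 0.47 that was not called (adjusted p = 0.252).

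**Figure D4:**
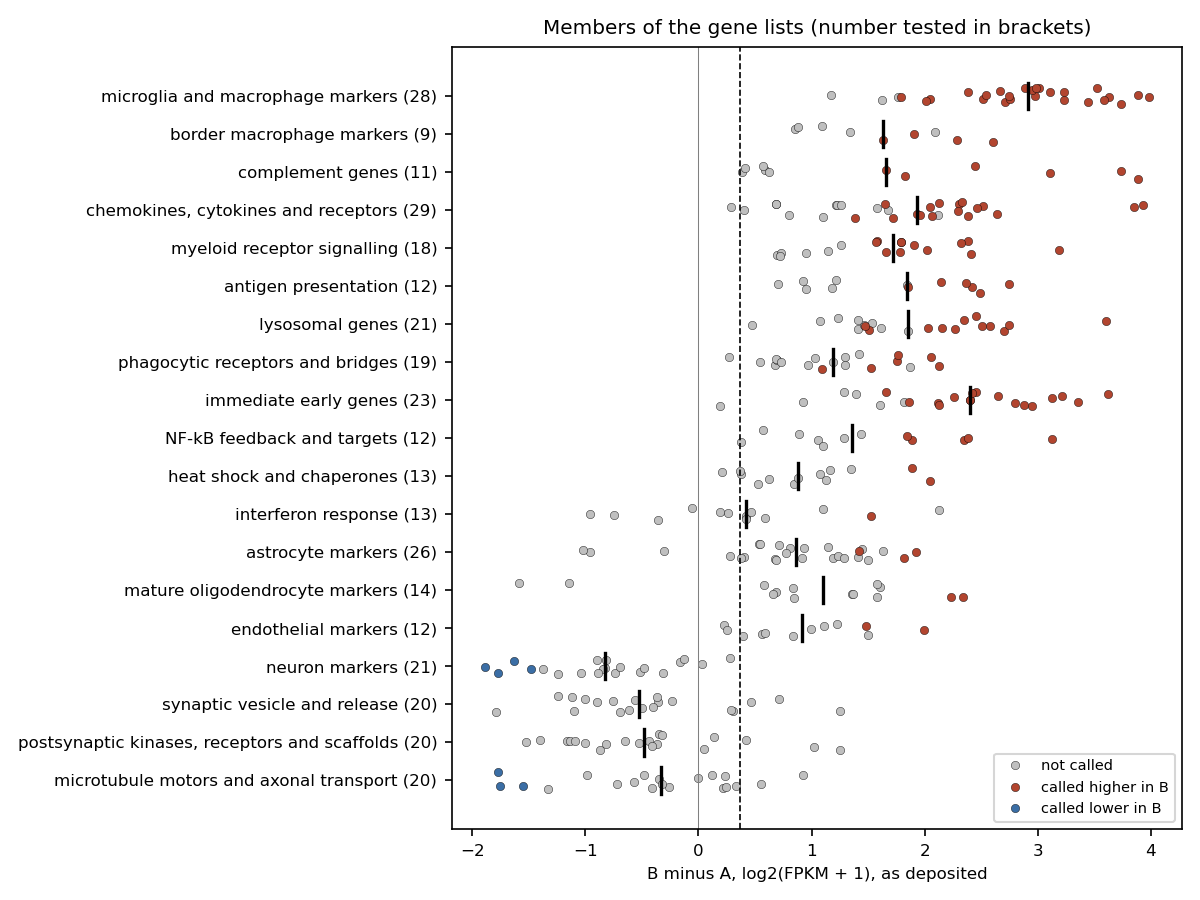
B minus A differences, in log2(FPKM + 1) as deposited, of the tested members of 19 gene lists, with 1 point per gene, colour for the call, a bar at the list median, a dashed line at the median of all genes (0.36) and a solid line at 0. The microglial and immediate early medians (2.91 and 2.40) lie furthest to the right and the neuron median (-0.83) furthest to the left.

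Astrocyte markers were not uniformly different. Of 26 members 23 had a positive difference as deposited, and the list median was 0.86 against 0.36 over all genes. In B 3 members were called higher and 0 lower, against 3.8% higher and 0.148% lower over all genes. By region the list median was 0.66 in the olfactory bulb, 2.06 in the cortex and 0.13 in the brainstem. Over all genes these medians were 0.16, 0.83 and 0.07. The list median was 0.31 after quantile normalization and 0.60 without cortex A 2. Gpr37l1, a receptor of astrocytes, had 75.1, 130 and 199 FPKM in B and 6.43, 35.3 and 98.3 FPKM in A (1.92 ± 0.51, adjusted p = 0.0434, limma). Slc7a10, a transporter of D-serine and other small amino acids, had 10.1, 27.2 and 40.5 FPKM in B and 0.653, 6.87 and 13.2 FPKM in A (1.82 ± 0.45, adjusted p = 0.0314). Gja1, the gap junction protein connexin 43, had 61.8, 106 and 202 FPKM in B and 20.9, 44.4 and 52.4 FPKM in A (1.42 ± 0.38, adjusted p = 0.0437). None of the 3 was called after quantile normalization, when the only call was S100b, a calcium-binding protein, as lower. After rescaling 0 were higher and 1 was lower.

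S100b was named after its values were seen. It had 26.2, 45.6 and 120 FPKM in B and 25.8, 116 and 254 FPKM in A, a difference of -1.02 ± 0.42 as deposited (adjusted p = 0.179, limma) and -1.59 after quantile normalization (adjusted p = 0.0135). Aldh1l1 gave 1.15 ± 0.47 (adjusted p = 0.172) as deposited and 0.55 after quantile normalization (adjusted p = 0.401). The receptor Fgfr3 (1.45 ± 0.45) and the GABA transporter Slc6a11 (1.41 ± 0.44) were not called on either scale. The count of 3 was 1 without olfactory bulb A 1, olfactory bulb A 2, cortex A 2 or brainstem B 1. It was 0 without cortex A 1, brainstem A 2, olfactory bulb B 1, cortex B 1 or cortex B 2.

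Neuron markers were lower in B in 4 of 21 members tested as deposited and in 11 after quantile normalization and 3 after rescaling, with 0 higher on any of these scales and a median difference of -0.83 as deposited. Their summed level was 72.6 to 336 FPKM in B and 203 to 479 FPKM in A. Gap43, a growth cone protein, had 7.83 and 4.53 FPKM in olfactory bulb B, 10.2 and 11.8 FPKM in cortex B and 0.758 and 0 FPKM in brainstem B. It had 11.0 and 7.78 FPKM in olfactory bulb A, 22.8 and 33.5 FPKM in cortex A and 15.2 and 13 FPKM in brainstem A (-1.77 ± 0.46, adjusted p = 0.0362, limma). The 2 brainstem B libraries stood under all others. Snap25, part of the vesicle fusion machinery, had 23.4, 40.1 and 144 FPKM in B and 70.8, 124 and 173 FPKM in A (-1.48 ± 0.37, adjusted p = 0.0307). Celf4, an RNA-binding protein of neurons, had 0, 19.4 and 31.6 FPKM in B and 8.81, 44.4 and 67.3 FPKM in A (-1.63 ± 0.42, adjusted p = 0.0367). Rbfox3, which encodes the nuclear antigen NeuN, had 0, 1.83 and 4.58 FPKM in B and 1.09, 7.6 and 11.3 FPKM in A, and was called only after quantile normalization (-1.71, adjusted p = 0.0105).

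The count of 4 lower neuron markers rested on most libraries. It was 0 without brainstem A 2, 2 without olfactory bulb A 2, cortex A 1 or brainstem A 1, and 1 without olfactory bulb A 1, olfactory bulb B 1, cortex B 1, cortex B 2 or brainstem B 1. Without both brainstem B 2 and cortex A 2 it was 6. Of 26 alternatives, Syn1 lost its call in 6, Snap25 in 12, Gap43 in 15 and Celf4 in 16. Within regions the mean level of the list was lower in both B libraries than in both A libraries each time, at 2.37 and 2.83 in olfactory bulb B against 3.37 and 3.46 in A, at 2.14 and 2.38 in cortex B against 3.02 and 2.45 in A, and at 1.55 and 1.48 in brainstem B against 2.60 and 2.65 in A. These values are means of log2(FPKM + 1) and carry no test.

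Calls among genes of the synapse depended on the setting. Of 20 synaptic vesicle and release genes 0 were called as deposited, 8 were lower after quantile normalization, 2 after rescaling, 2 with the number series in the fit, 6 with array quality weights, and 1 without cortex A 2 or olfactory bulb B 2. Cplx1, a regulator of vesicle fusion, had 0.298, 7.39 and 28 FPKM in B and 6.9, 26.6 and 48.3 FPKM in A (-1.79 ± 0.51, adjusted p = 0.0553, limma, and -2.20 after quantile normalization, adjusted p = 0.00376). Syt11, a synaptotagmin that other cells also use, ran the other way at 1.25 ± 0.41 (adjusted p = 0.0919). Of 20 postsynaptic genes 0 were called as deposited, 8 were lower after quantile normalization, 4 after rescaling, 3 with the number series in the fit and 8 with array quality weights, which also called 1 higher. As deposited 3 were lower without olfactory bulb B 2 and 1 was higher without brainstem B 2. Of the 8 lower after quantile normalization, the scaffold Shank1 gave -1.83 (adjusted p = 0.00821) and the kinase chain Camk2b -1.64 (adjusted p = 0.00405) on that scale. The glutamate receptor chain Gria2 gave 1.25 ± 0.38 as deposited (adjusted p = 0.0713).

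Among 20 genes of microtubule motors and axonal transport, 3 were lower as deposited, 6 after quantile normalization and 4 after rescaling, with 0 higher on any of these scales. Kif5b, a kinesin heavy chain found in most cells, had 14.6, 22.7 and 38.8 FPKM in B and 35.9, 81.1 and 194 FPKM in A (-1.77 ± 0.42, adjusted p = 0.0252, limma). Its neuronal relative Kif5a had 13.6, 55.7 and 185 FPKM in B and 61.9, 232 and 555 FPKM in A (-1.76 ± 0.43, adjusted p = 0.0307). Trak2, an adaptor that ties mitochondria to kinesin, had 4.85, 10.4 and 14.2 FPKM in B and 15.1, 28.2 and 75.4 FPKM in A (-1.55 ± 0.40, adjusted p = 0.0372), without overlap. The third kinesin of this family, Kif5c, gave -1.33 ± 0.41 (adjusted p = 0.0771) as deposited and -1.95 (adjusted p = 0.00812) after quantile normalization. The Kif5 genes are paralogs, and how Cufflinks shared reads between them is not known. The count of 3 was 0 without cortex A 1, brainstem A 2, olfactory bulb B 1, cortex B 1 or brainstem B 1, and 1 without cortex B 2. Kif5b lost its call in 8 of 26 alternatives, Kif5a in 11 and Trak2 in 14.

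Further genes with a large negative difference were the following. Tenm2, a synaptic adhesion protein, had 0, 0.759 and 1.23 FPKM in B and 2.21, 7.18 and 12.4 FPKM in A, and every B library was below every A library (-2.12 ± 0.39, adjusted p = 0.00433, limma). Gng13, a subunit of G proteins, had 23.6 and 33.7 FPKM in olfactory bulb B, 5.35 and 1.69 FPKM in cortex B and 0.941 and 0 FPKM in brainstem B. It had 51.2 and 71.5 FPKM in olfactory bulb A, 11.0 and 21.9 FPKM in cortex A and 10.2 and 9.65 FPKM in brainstem A, so it was highest in the bulb in both populations and lower in B within each region (-2.02 ± 0.42, adjusted p = 0.0103). Scrt1, a transcriptional repressor of neurons, had 0, 2.22 and 9.38 FPKM in B and 7.05, 9.57 and 17.8 FPKM in A (-1.78 ± 0.41, adjusted p = 0.0217). The libraries carry no strand information, so reads of Zfas1 and of its antisense neighbour, and of Cdr1 and of the circular antisense RNA of its locus, cannot be told apart. Zfas1 was listed at 0 in 4 B libraries and at 9.68 and 6.73 FPKM in the other 2, against 4.19 to 21.5 FPKM in A (adjusted p = 0.0499). Cdr1 had 49.3, 97.7 and 336 FPKM in B and 190, 326 and 839 FPKM in A (-1.71 ± 0.44, adjusted p = 0.0372). Of 26 alternatives, Tenm2 lost its call in 1, Gng13 in 3, Scrt1 in 10, Cdr1 in 15 and Zfas1 in 18.

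In a pair of the genes named for a positive difference, single libraries stood far from the rest. Grcc10, a small gene of a dense gene cluster on chromosome 6, had 28.9 and 34.8 FPKM in olfactory bulb B, 54.3 and 38.5 FPKM in cortex B and 27.4 and 21.5 FPKM in brainstem B. In A it was listed at 0 in 5 libraries and at 55.6 FPKM in olfactory bulb A 1, above every B library, so an estimate that failed in the 5 cannot be told from absence (adjusted p = 0.00375, limma). Ilvbl, a metabolic enzyme, had 528 FPKM in brainstem B 2 and 3.44 to 27.9 FPKM in the other B libraries, against 0 to 5.8 FPKM in A (adjusted p = 0.025, limma). It was not called under 12 of 26 alternatives, among them the 9 libraries of the first series, although it was called without brainstem B 2.

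Markers of the remaining cell types showed few calls in number, to be read against the 3.8% of all genes higher as deposited. Of 14 markers of mature oligodendrocytes 12 had a positive difference, and the list median was 1.10 against 0.36 over all genes. As deposited 2 of the 14 were called higher. The calls split after quantile normalization, when 2 were higher and 2 lower, and after rescaling 0 were higher and 2 lower. Opalin, a myelin membrane protein, had 3.39, 8.08 and 34.7 FPKM in B and 0, 1.04 and 4.09 FPKM in A (2.23 ± 0.48, adjusted p = 0.0141, limma). The iron carrier Trf had 19.2, 40.4 and 280 FPKM in B and 3.28, 8.76 and 35.9 FPKM in A (2.34 ± 0.58, adjusted p = 0.0312). Mobp, another myelin protein, had 77.7, 234 and 354 FPKM in B and 213, 595 and 2631 FPKM in A, and was lower after quantile normalization (-1.97, adjusted p = 0.00812), as was Mbp, named after its values were seen (-1.41, adjusted p = 0.00978). The count of 2 higher was 1 without olfactory bulb A 1, cortex A 1, cortex A 2, brainstem A 2 or olfactory bulb B 1, and without olfactory bulb B 2 the counts were 3 higher and 2 lower.

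All 12 endothelial markers had a positive difference as deposited, with a list median of 0.92 against 0.36 over all genes. After quantile normalization these medians were 0.37 and -0.02. Of the 12 markers 2 were called higher as deposited and 0 after quantile normalization or rescaling. They were Slc2a1, the glucose carrier of the blood-brain barrier (1.99 ± 0.50, adjusted p = 0.0314, limma), and Pecam1, an adhesion protein also used by leukocytes (1.48 ± 0.40, adjusted p = 0.0448), and neither was called without both brainstem B 2 and cortex A 2. The count was 0 without olfactory bulb A 1, cortex A 2, olfactory bulb B 1, cortex B 1 or cortex B 2, and 1 without olfactory bulb A 2, cortex A 1, brainstem A 1, brainstem A 2 or olfactory bulb B 2. Of 10 markers of pericytes and smooth muscle 9 had a positive difference as deposited, with a list median of 0.77. Only Acta2, smooth muscle actin, was called higher, as deposited and after quantile normalization but not after rescaling. It had 2.91, 7.43 and 23.4 FPKM in B and 0, 0.308 and 2.41 FPKM in A (2.58 ± 0.51, adjusted p = 0.0079, limma). No member was called on either scale among 11 markers of oligodendrocyte precursors, 7 of blood cells, 8 of choroid plexus and ependyma, 7 of fibroblasts and meninges, 13 of neuroblasts and bulb interneurons, 6 of the forebrain and 21 nuclear genes of oxidative phosphorylation. At an unadjusted p under 0.05 limma gave 2281 higher and 243 lower genes in all. The lists of blood cells and neuroblasts had negative medians as deposited, at -0.72 and -0.50. None of the 12 hindbrain genes passed the filter. The surface antigens Itgav (0.70 ± 0.37), Cd63 (0.47 ± 0.48) and Tfrc (1.14 ± 0.42), which are linked with the sort in what is known of the study but not in the labels, were not called, with the smallest adjusted p at 0.126.

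Whether the difference between B and A depended on the region was tested with an interaction term. By limma 0 of 12176 genes were called (0.0%), 633 had an unadjusted p under 0.05, and the smallest adjusted p was 0.803. The 633 are near the share that a threshold of 0.05 gives when no gene depends on region. Without brainstem B 1 the count was 144, without brainstem A 2 it was 2, and with all 36 libraries in the fit it was 3. With 2 libraries a group, this does not show that the regions act alike. Within single regions, limma called 0 genes in the olfactory bulb and 0 in the cortex, and 38 higher and 5 lower in the brainstem. Calls in 1 region and not in another are no test of a difference between regions. All 20 genes named for a higher level in B were higher by group means in all 3 regions, as the rule required. Trem2 differed by 3.70 in the olfactory bulb, 4.09 in the cortex and 4.15 in the brainstem, and Ccl3 by 4.22, 2.58 and 4.99 in the same order. Gap43 differed by -0.55, -1.26 and -3.51, with an unadjusted p of the region term of 0.0109. The median over all genes was 0.16 in the olfactory bulb, 0.83 in the cortex and 0.07 in the brainstem.

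**Figure D5:**
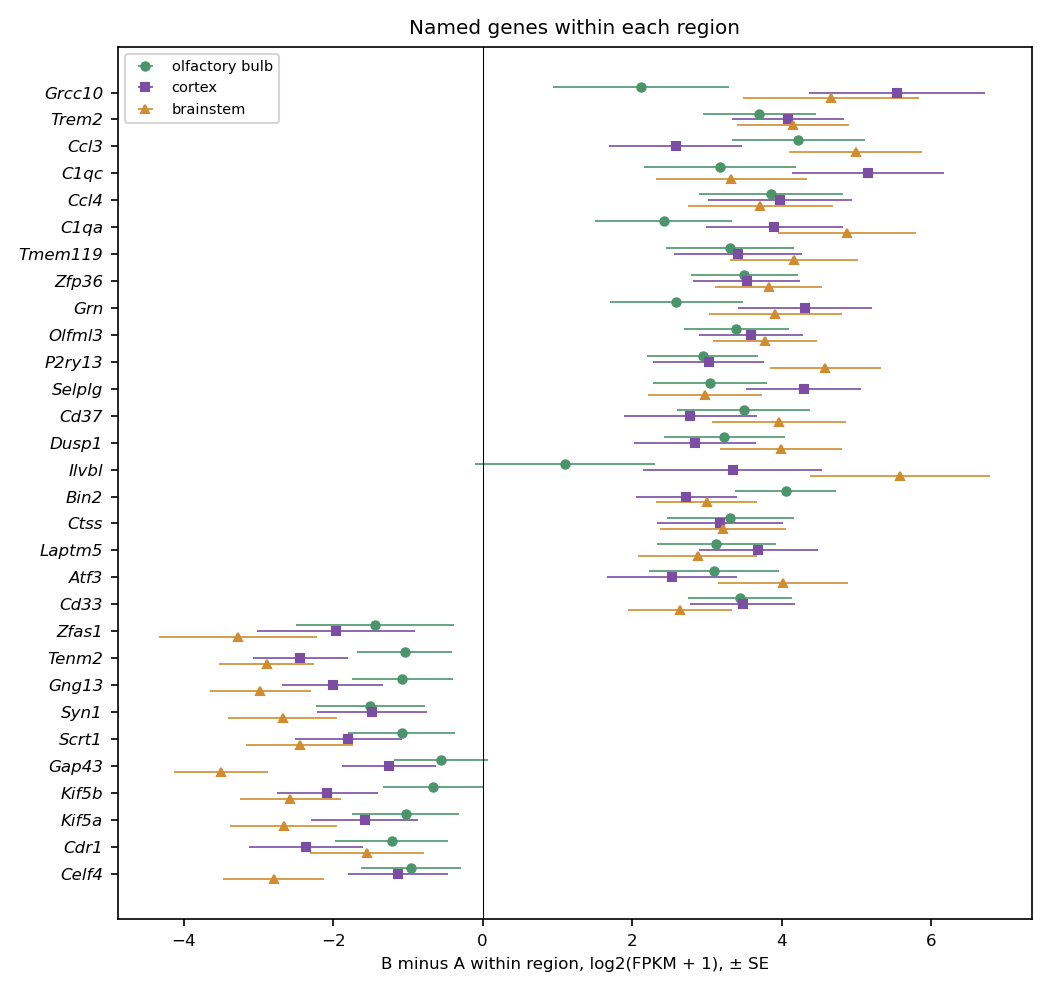
B minus A differences within each region, in log2(FPKM + 1) with bars of ± SE, for the 20 genes named for the largest positive and the 10 named for the largest negative difference. All points of the upper 20 lie right of 0 and all of the lower 10 left of it, as the rule required, with Gap43 spread from -0.55 in the olfactory bulb to -3.51 in the brainstem.

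The genes with the smallest p of the region term are described here, although none was called. Ighm, the heavy chain of immunoglobulin M made by B lymphocytes, had 12.1 and 25.8 FPKM in olfactory bulb B and was listed at 0 in the other B libraries, against 5.33 FPKM in cortex A 2 and 0 in the other A libraries (unadjusted p = 0.000104, adjusted p = 0.803, limma). Enho, which encodes the secreted peptide adropin, had 19.8 and 17.6 FPKM in cortex B against 2.83 and 0 FPKM in cortex A, while in the brainstem B had 10.8 and 9.07 FPKM and A 26.3 and 18.8 FPKM. Nrarp, a feedback inhibitor of Notch signalling, had 11.7 and 16.2 FPKM in cortex B and 4.28 and 0.483 FPKM in cortex A, and in the brainstem 1.65 and 0.91 FPKM in B and 7.76 and 7.91 FPKM in A. Gm13889 followed the same pattern, and Tk2, a mitochondrial thymidine kinase, was 0.0783 and 0 FPKM in brainstem B and 3.91 and 6.6 FPKM in brainstem A. Each of these 5 had an adjusted p of 0.803 by limma, so none passed the threshold. The lower cortex A values of Enho and Nrarp are those of cortex A 2, where only 4278 genes reached 1 FPKM.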

How the data were processed

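The submitters' processing notes name bcl2fastq 1.8.3, TopHat, Cufflinks and mm10. The deposited tables list 63241 transcripts with FPKM, its interval and a coverage signal, per the file headers. Per the labels the kit was NuGEN Ovation V2, which does not mark strand. Each transcript was matched to a GENCODE vM21 gene at its locus (52546, 83.1%) when the overlap score was at least 0.5 and led by 0.1, and FPKM was summed per gene. Mitochondrial transcripts and 4 nuclear genes that lack an estimate in some libraries were left out. The 12176 genes with at least 1 FPKM in 2 of the 12 libraries were tested as log2(FPKM + 1), which understates changes of low genes. A gene can pass this filter through 1 population alone, and its call and lack of overlap then rest on the population where it is high.

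Tests used limma 3.58.1 in R 4.3.3 (region as block, trend, 8 residual degrees of freedom), checked on simulated data. Depth was the ratio of coverage signal to FPKM. FPKM is not a count, so no count model was used. Alternatives were scaling, pseudocount, filter, transcript choice, number series, weights, all 36 libraries and leaving out each library. Figures and tables used pandas and matplotlib. Members and gene lists were chosen with earlier results of these data known. Genes named are the 20 most positive and 10 most negative called on both scales, averaging at least 5 FPKM in the higher population and alike in direction in all regions, up to 5 per list by adjusted p, and 5 by region term. Any other name was chosen after its values were seen, where a count was small or a gene was singled out. Promoter sequences are RefSeq's (GRCm38.p6), and 200 of 264 genes higher on both scales had one. Results for some genes are not reported here.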

Additional observations from a re-analysis of the deposited data

Results flagged for a closer look

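Of 62 sets of 6 libraries examined (31 named genes in B and in A), 5 held a library whose gap to its nearest neighbour exceeded Dixon's critical value for 6 samples, where chance flags about 1 in 20. In B, olfactory bulb B 2 had 11.3 FPKM of C1qa (65.0 to 113 FPKM in the other B libraries) and 45.8 FPKM of Laptm5 (129 to 188 FPKM in the other B libraries). In A, cortex A 2 had 0.575 FPKM of C1qc (17.7 to 42.7 FPKM in the other A libraries). Olfactory bulb A 1 had 55.6 FPKM of Grcc10, which was listed at 0 in the other A libraries, and 17.8 FPKM of Scrt1 (7.05 to 9.81 FPKM in the other A libraries).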

How the results depend on the processing

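No paired analysis was possible because the labels give no replicate numbers. Against 463 higher genes as deposited, 131 were higher after rescaling, 269 after quantile normalization, 270 with a pseudocount of 0.1, 237 with no filter, 188 with the most abundant transcript of each gene, 746 with all 36 libraries in the fit, 1742 with array quality weights, 29 with a minimum log2 difference of 1, and 219 to 937 without 1 library. Against 18 lower genes, the counts were 68 after rescaling, 236 after quantile normalization, 9 with a pseudocount of 0.1, 5 with no filter, 5 with no term for region, 46 with the number series in the fit, 37 in its first series alone, 265 with array quality weights, 0 with a minimum log2 difference of 1, 47 without the 2 libraries with the fewest genes (added after seeing the data), and 5 to 32 without 1 library. Region dependence was called in 3 genes with all 36 libraries, and in 0 to 144 without 1 library, the 144 without brainstem B 1 and 2 without brainstem A 2. The cause was not tested. Of 79 called named genes, 18 were called under all 26 alternatives, among them Ccl3, C1qc, Trem2, Csf1r and Zfp36, and Syn1 was not called under 6. None of the 156 named genes changed sign in a call. With 2 libraries a group, a gene not called may still differ. Low genes are measured less precisely in A, where depth was lower.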
